A study of Mus musculus with 12 samples.

Results

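The comparison described here was between resting soleus muscle of 3 knockout mice that lack Dnmt3a in muscle (KO) and of 3 wild type mice (WT), all of them sedentary, 6 of the 12 RNA sequencing libraries of the series. The libraries were chosen by the genotype and condition in the column names of the count table, and every gene that passed a filter on low counts was tested, which was 13886 of 24539 genes. All mice were C57BL/6 on chow diet. In the labels the genotypes read Dnmt3a floxed, WT and MCK-Dnmt3a KO. The other 6 libraries came from exercised WT and KO mice, 3 of each. They give a second set of mice of the same genotypes, and they also entered the fit, so the spread behind each p-value was estimated from all 12 libraries. The sources used here give no age, sex, deleted exons or time of dissection. MCK is the muscle creatine kinase promoter, which is active in striated muscle fibres, so other cells of the muscle should keep an intact gene.

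Dnmt3a encodes a DNA methyltransferase that places methyl groups on cytosines of CpG dinucleotides not methylated before, and dense CpG methylation at a promoter is known to go with a silent gene. Dnmt1 copies existing methylation after DNA replication, and the Tet enzymes oxidise methylcytosine. The soleus is a postural calf muscle whose fibres are mostly slow and oxidative, in contrast to the fast glycolytic fibres of its neighbours. DNA methylation was not measured in these libraries, so the values below are transcript levels only. Levels are in CPM, that is, counts after division by the TMM-scaled library size, and changes are log2 ratios of KO to WT with the standard error (SE) of the fit.

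Sedentary libraries held 14747781 to 15238957 counts, so depth differed little between the groups. The KO library called b stood apart from the other 5. It lay alone on the first principal component, which held 47% of the variance. In KO b 195 genes were more than 2 times higher than in every other sedentary library, against 0 to 17 such genes for each of the others. For these counts 1 CPM was added to every level, which leaves out genes at very low levels. Alb, the liver's serum albumin, was at 329 CPM in KO b, 20.6 in KO a and 9.42 in KO c, and at 0.435 to 2.28 CPM in WT. Alox15 and Timd4, genes of resident peritoneal macrophages, were at 162 and 15.1 CPM in KO b, and Alox15 was at most 1.61 CPM elsewhere. The fast glycolytic myosin Myh4 was at 5505 CPM in KO b, 1275 in KO c and 33.8 in KO a, against 336, 35.0 and 483 in WT. The clock output gene Dbp split the libraries another way, with 153 CPM in KO a and 136 in both WT b and WT c, against 20.3, 25.8 and 24.2 CPM in KO b, KO c and WT a. Myelin and other Schwann cell transcripts were high in 1 library of each genotype, with a summed level of 961 CPM in WT a and 1065 CPM in KO b, and 208 to 301 CPM in the other 4. KO a carried 17 genes of its own, among them the embryonic myosin Myh3 at 164 CPM, against 21.1 to 37.7 CPM in the other 5 libraries. The plot of summed marker levels by library shows that these libraries were high for different transcripts, so no single library was extreme in all of them.

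**Figure D1:**
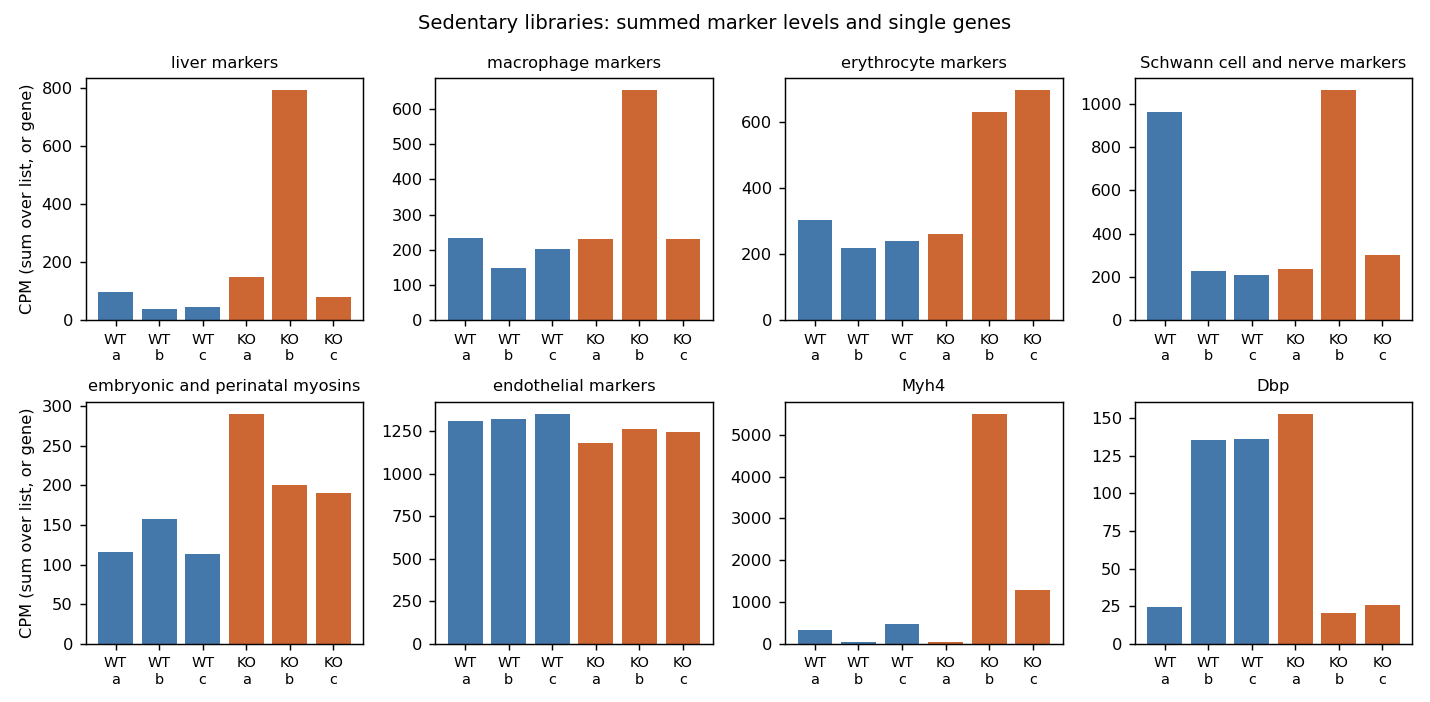
Each bar is 1 sedentary library, WT in blue and KO in orange, and the vertical axis is CPM, summed over the list named above each panel or for the single gene named. Liver and macrophage transcripts and Myh4 were highest in KO b, and the sum of the embryonic and perinatal myosin list in KO a. Erythrocyte transcripts were high in KO b and KO c, and endothelial transcripts ranged only from 1180 to 1354 CPM.

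The targeted transcript itself was lower in every KO library. Dnmt3a (chr12:3806007-3914443, mm10) was at 136, 180 and 133 CPM in WT and at 49.3, 52.7 and 48.6 CPM in KO. The groups did not overlap, and the KO mean was 33.6% of the WT mean. The log2 change was -1.57 (SE 0.162) with an adjusted p of 0.00347 by edgeR's quasi-likelihood test with Benjamini-Hochberg adjustment, the test used for all adjusted p-values below unless another is named. Without KO c the change was -1.55 and the adjusted p was 0.0536. Counts were given per gene and not per exon, so reads from exons outside the deletion and reads from cells without the deletion are not separated in the remaining level. The exons of Dnmt3a overlap the antisense gene Dnmt3aos, and whether the counting was stranded is unknown.

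Besides Dnmt3a, 3 genes passed the adjusted threshold of 0.05, and all 3 were higher in KO: Ctxn3, Mttp and Kcne1l. These 4 calls were 0.0288% of the genes tested, 0.0216% higher and 0.0072% lower. By unadjusted p under 0.05 there were 671 genes, 4.83% of those tested, with 3.2% higher and 1.63% lower. The 671 included 105 of the 195 genes more than 2 times higher in KO b than in every other sedentary library. Without KO b there were 377 genes under this threshold, 224 higher and 153 lower. In 10.4% of genes the KO and WT libraries did not overlap, with KO above in 5.51% and below in 4.87%. Most intervals were narrow enough to bound the change. For 81.9% of genes the 95% interval lay within 1 on the log2 scale in either direction, so a doubling or a loss of the same size was outside their intervals.

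Ctxn3 encodes cortexin 3, a small membrane protein described in brain and kidney. It was at 32.1, 36.0 and 32.2 CPM in WT and at 65.3, 71.3 and 65.3 CPM in KO. The lowest KO library was 1.81 times the highest WT library. The log2 change was 1.01 (SE 0.102, adjusted p = 0.00347 by edgeR), and Ctxn3 passed the threshold in 23 of 23 alternative settings, which included leaving out each of the 12 libraries.

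Mttp (chr3:138089854-138144968) encodes the microsomal triglyceride transfer protein, which loads lipid onto apolipoprotein B in liver and intestine. Its level was low, 5.03, 5.73 and 5.83 CPM in WT and 13.01, 11.1 and 11.2 CPM in KO. The groups did not overlap, and the 3 KO libraries, KO b among them, were close to each other. The change was 1.09 (SE 0.144, adjusted p = 0.0192 by edgeR). The call ended when any 1 of the 6 sedentary libraries was left out, with adjusted p from 0.0804 to 0.127 and changes from 1.01 to 1.13, with the 6 sedentary libraries fitted alone (adjusted p = 0.12) and with limma-voom (adjusted p = 0.0649). Apob, which encodes the protein that Mttp serves, was at 17.4 CPM in KO b and at most 0.754 CPM in the other 5 libraries. The part of liver RNA in the level of Mttp was not tested.

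Kcne1l (chrX:142304752-142306294) encodes a single-span accessory subunit of voltage-gated potassium channels. It was at 3.36, 5.80 and 6.43 CPM in WT and at 13.3, 14.7 and 15.02 CPM in KO. Every KO library was more than 2 times every WT library. The change was 1.47 (SE 0.195, adjusted p = 0.0192 by edgeR). The call ended without KO b, KO c or WT b, with adjusted p from 0.107 to 0.132, and when the 6 sedentary libraries were fitted alone (adjusted p = 0.271). None of the other 14 tested genes of the potassium channel list passed the threshold or an unadjusted p under 0.05.

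Aldh1l1 (chr6:90486427-90600203) encodes the cytosolic 10-formyltetrahydrofolate dehydrogenase, a folate enzyme, and is included as a gene of the study's own published work. It was at 7.39, 10.1 and 9.64 CPM in WT and at 22.1, 20.8 and 20.5 CPM in KO. The lowest KO library was 2.03 times the highest WT library. The change was 1.22 (SE 0.247), but in the fit over all 12 libraries it did not pass, with an adjusted p of 0.446 by edgeR. It passed with DESeq2 (adjusted p = 0.00375), with the 6 sedentary libraries fitted alone (adjusted p = 0.0497) and with the level of the circadian clock list as a covariate (adjusted p = 0.00348). The call for Aldh1l1 thus depended on the fit, while the change itself lay between 1.10 and 1.42 over all settings. Gene exons of Aldh1l1, Mttp and Dnmt3a overlap those of other annotated genes, among them Gm15756 and Gm45901 for Aldh1l1 and Trmt10a and Gm43691 for Mttp.

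**Figure D2:**
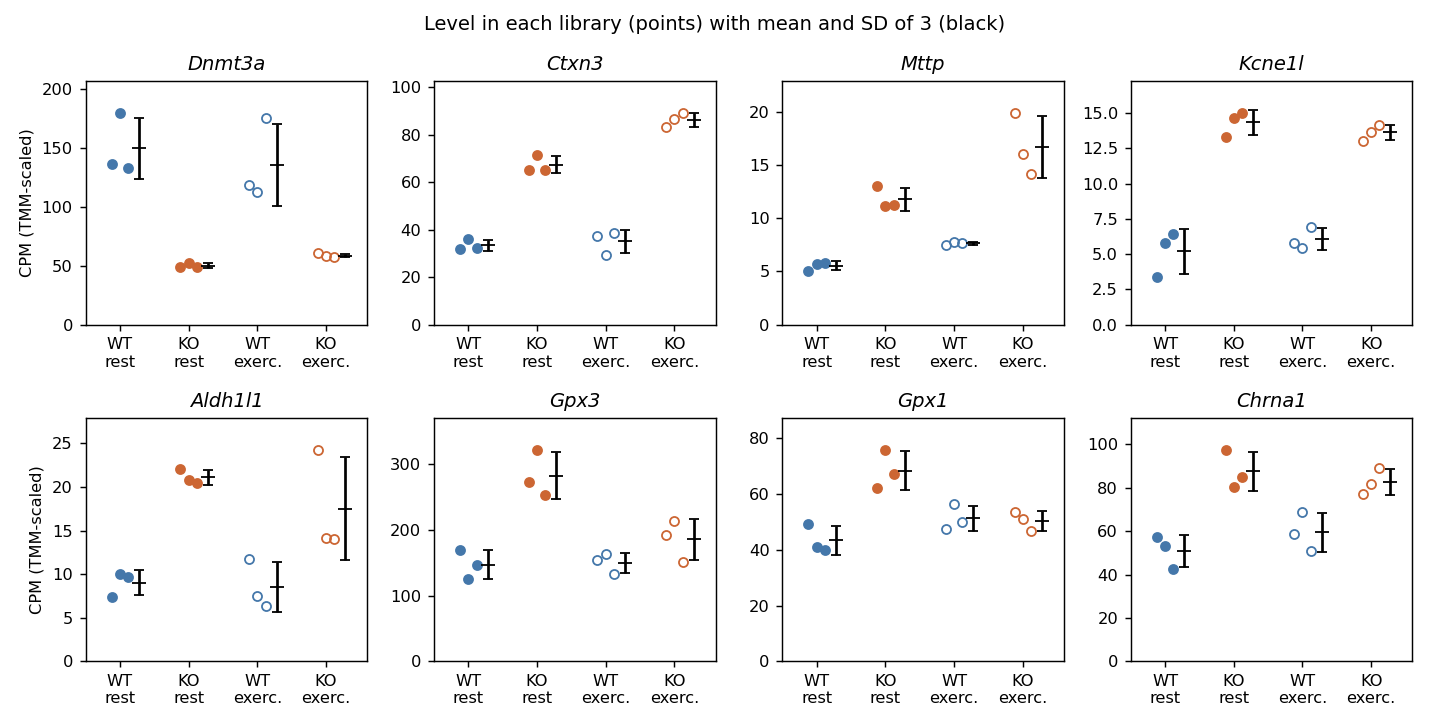
Points are single libraries, filled for sedentary and open for exercised mice, the vertical axis of each panel is CPM from 0, and the black mark beside each group is the mean with the SD of 3 libraries. In sedentary mice the KO points of all 8 genes lie apart from the WT points, below them for Dnmt3a and above them for the other 7.

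Promoter sequences of the higher genes are shown because CpG dinucleotides, printed in capitals, are what Dnmt3a methylates. The windows run from 250 bases before to 50 after the RefSeq transcript start on GRCm38.p6, 5′ to 3′ on the gene's strand. They are chr3:138143369-138143668 on the minus strand for Mttp, chrX:142306149-142306448 on the minus strand for Kcne1l and chr6:90550543-90550842 on the plus strand for Aldh1l1. The GENCODE gene Aldh1l1 begins far upstream of its window, at 90486427, and that of Mttp somewhat upstream, at 138144968, so other annotated starts of these genes lie outside the windows. No window is shown for Ctxn3.
Mttp: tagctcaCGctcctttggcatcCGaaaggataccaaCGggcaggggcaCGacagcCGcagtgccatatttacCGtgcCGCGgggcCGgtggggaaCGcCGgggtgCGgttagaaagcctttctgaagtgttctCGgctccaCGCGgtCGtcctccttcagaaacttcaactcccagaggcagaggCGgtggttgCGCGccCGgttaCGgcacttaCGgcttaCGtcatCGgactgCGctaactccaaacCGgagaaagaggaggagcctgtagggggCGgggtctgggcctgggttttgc
Kcne1l: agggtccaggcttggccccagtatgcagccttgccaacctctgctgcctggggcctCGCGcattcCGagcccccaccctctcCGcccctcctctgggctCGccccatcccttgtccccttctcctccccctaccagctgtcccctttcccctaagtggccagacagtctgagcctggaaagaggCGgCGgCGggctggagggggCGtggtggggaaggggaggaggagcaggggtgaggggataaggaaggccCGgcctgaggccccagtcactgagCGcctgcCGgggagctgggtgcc
Aldh1l1: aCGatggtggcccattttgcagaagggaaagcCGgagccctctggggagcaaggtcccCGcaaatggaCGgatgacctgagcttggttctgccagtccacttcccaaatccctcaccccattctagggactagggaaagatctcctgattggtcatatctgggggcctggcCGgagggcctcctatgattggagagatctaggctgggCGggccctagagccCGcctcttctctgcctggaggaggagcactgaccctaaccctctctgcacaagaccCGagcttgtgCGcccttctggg
Mttp has 27 CG in its 300 bases, Kcne1l has 12 and Aldh1l1 has 9. Over the 10689 tested genes with such a window the median was 20, and 99.4% held at least 1 CG, a motif that reads the same on both strands. Thus 70.1% of promoters held fewer CG than that of Mttp, 24.6% fewer than that of Kcne1l and 18.4% fewer than that of Aldh1l1. The 3 windows therefore did not share a high or a low CpG content. Among genes higher in KO at an unadjusted p under 0.05, 326 had a window and the median was 11 CG, and among the 158 lower ones it was 20. Without KO b, the medians were 17 for 171 higher genes and 20 for 117 lower genes.

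DESeq2 called 20 genes, 0.144% of those tested, 16 higher and 4 lower in KO, and these included the 4 genes called by edgeR. For the other 16 the edgeR adjusted p ran from 0.0893 to 0.986, so with all 12 libraries only DESeq2 called them. Some of the 16, Aldh1l1 among them, passed by edgeR in other settings. None of the 20 was among the 195 genes high only in KO b. A gene high in 1 of 3 libraries has a wide spread that makes a call unlikely, so this says little about the 20. The volcano plot shows the 20 called genes at moderate changes, with unadjusted edgeR p from 2.95e-07 for Ctxn3 to 0.00526 for the globins. Most liver transcripts lie at large changes, and the smallest unadjusted edgeR p among them was 0.0107, for Mup20.

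**Figure D3:**
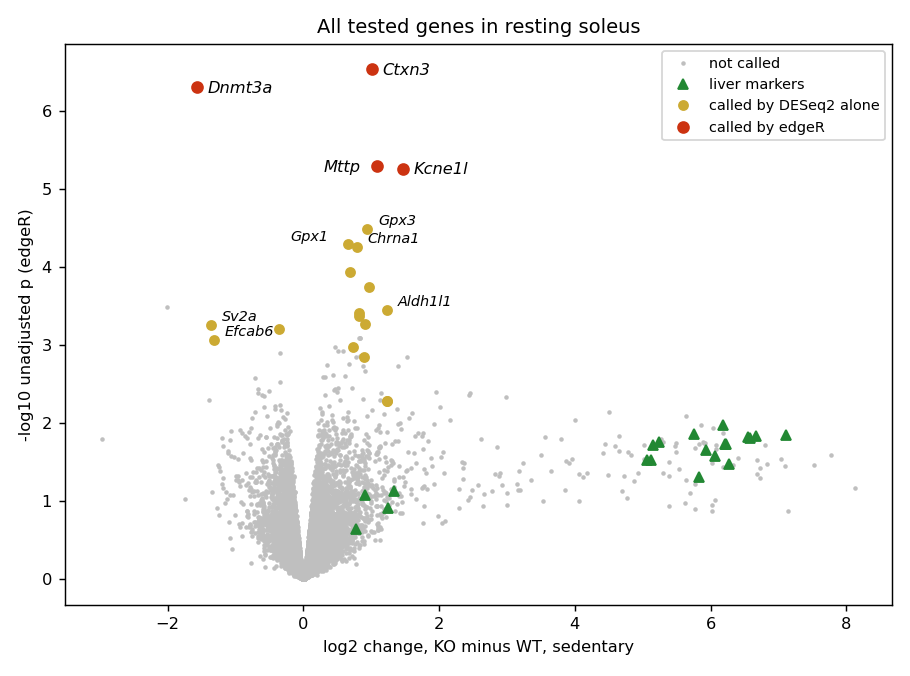
Each point is 1 of 13886 genes, with the log2 change of KO against WT in sedentary mice on the horizontal axis and -log10 of the unadjusted edgeR p on the vertical axis, red for genes called by edgeR, yellow for those called by DESeq2 alone and green triangles for the 20 liver markers. The called genes lie between -1.57 and 1.47, while 16 of the 20 liver markers lie to the right of 5 without being called.

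Among the DESeq2 calls were 2 glutathione peroxidases, selenium enzymes that reduce peroxides. Gpx3 (chr11:54902453-54910377), the secreted form, was at 170, 125 and 147 CPM in WT and at 273, 323 and 253 CPM in KO, with no overlap. Its change was 0.94 (SE 0.148), with an adjusted p of 0.0893 by edgeR and 6.82e-06 by DESeq2. Gpx1 (chr9:108338903-108340343), the cytosolic form, was at 49.3, 41.0 and 39.8 CPM in WT and at 62.2, 76.0 and 67.1 CPM in KO, also without overlap. Its change was 0.66 (SE 0.109), with an adjusted p of 0.11 by edgeR and 0.000206 by DESeq2. The rest of the antioxidant and glutathione list had no call. Of 31 listed and tested genes, 20 were positive, the median was 0.03 (0.08 without KO b), and only Gpx1 and Gpx3 reached an unadjusted p under 0.05. Over all tested genes 50.7% were positive and the median was 0.0026.

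Shmt1 (chr11:60788104-60811718), the cytosolic serine hydroxymethyltransferase that feeds the folate pool on which Aldh1l1 acts, was at 4.54, 3.75 and 3.42 CPM in WT and at 8.68, 6.50 and 7.64 CPM in KO. Its change was 0.96 (SE 0.183), with an adjusted p of 0.276 by edgeR and 0.0107 by DESeq2. Shmt2, its mitochondrial counterpart, had a change of -0.02 (SE 0.091). Of 28 listed folate and one-carbon genes 26 were tested, 17 were positive, and the median was 0.11. Shmt1 and Aldh1l1 were the only members with an unadjusted p under 0.05.

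Genes of the neuromuscular junction were represented by Chrna1 (chr2:73563215-73580338), which encodes the alpha subunit of the acetylcholine receptor. It was at 57.1, 53.1 and 42.6 CPM in WT and at 97.6, 80.2 and 85.0 CPM in KO, with no overlap. The change was 0.78 (SE 0.131), with an adjusted p of 0.11 by edgeR and 0.000167 by DESeq2. Other receptor subunits were positive without passing either test. The fetal subunit Chrng, at 0.497 to 0.593 CPM in WT and 0.901 to 1.71 CPM in KO, had a change of 1.19 (SE 0.376), Chrnd 0.51 (SE 0.188), Chrnb1 0.33 (SE 0.136) and the adult subunit Chrne 0.24 (SE 0.169). Ache, the acetylcholinesterase of the synapse, had a change of 0.39 (SE 0.151). Of 17 listed genes 16 were tested, 11 were positive and 5 were negative, down to -0.23, and the median was 0.18. Of the 16, 5 reached an unadjusted p under 0.05, all of them positive. Over all tested genes 50.7% were positive and 3.2% were higher at an unadjusted p under 0.05. In the exercised mice 5 of the 16 were positive and the median was -0.04. Chrna1 itself had a change of 0.48 (SE 0.13) there, with no overlap and without a call by edgeR.

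Sln, which encodes sarcolipin, an inhibitor of the calcium pump of the sarcoplasmic reticulum, was at 68.4, 111 and 72.1 CPM in WT and at 192, 117 and 160 CPM in KO. The lowest KO library, KO b, was close to the highest WT library, WT b. The change was 0.90 (SE 0.212), with an adjusted p of 0.684 by edgeR and 0.0254 by DESeq2. Nos1, the neuronal nitric oxide synthase that sits at the fibre membrane, had 61.0 ± 10.6 CPM in WT and 101 ± 14.8 CPM in KO (SD, n = 3), a change of 0.73 (SE 0.17, adjusted p = 0.0388 by DESeq2). The remaining DESeq2 calls higher in KO were Rian, Dhdh, Tmem37 and Fam189b, with changes from 0.68 to 0.91, and the globins Hba-a1 and Hba-a2. Exons of Nos1, Shmt1, Dhdh and Rian overlap those of other annotated genes.

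The globin calls rested on 2 libraries. Hba-a1 was at 193 CPM in KO b and 172 in KO c, while KO a, at 65.0 CPM, lay within the WT range of 52.0 to 68.5 CPM. Hba-a2 had the same 12 counts, so the reads of these near-identical genes cannot be told apart. All 9 tested of 12 listed erythrocyte genes were positive, the KO and WT libraries overlapped for each, and the summed level was 628 and 696 CPM in KO b and KO c against 219 to 304 CPM in the other 4. The part of red blood cells left in the tissue in these values was not tested.

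The lower genes called by DESeq2 besides Dnmt3a were Sv2a, Efcab6 and Apbb2. Sv2a, a synaptic vesicle glycoprotein, had 4.89 ± 1.43 CPM in WT and 1.89 ± 0.257 CPM in KO (SD, n = 3), and Efcab6 had 17.7 ± 4.85 and 7.09 ± 1.30 CPM. The changes were -1.37 (SE 0.296) for Sv2a and -1.32 (SE 0.294) for Efcab6, with adjusted p of 0.507 and 0.592 by edgeR and 0.0364 and 0.0103 by DESeq2. The change of Apbb2 was small and even among libraries, at -0.36 (SE 0.0786). Its adjusted p was 0.533 by edgeR and 0.0497 by DESeq2. At rest all 3 genes had KO libraries below every WT library. After exercise the change of Apbb2 was 0.12 (SE 0.0792), with every KO library above every WT library. The difference between the conditions had an unadjusted p of 0.001 by edgeR and was not called.

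The next genes by edgeR p whose groups did not overlap are given as values, since none passed a test. On the higher side Tbc1d1, a Rab GTPase-activating protein of glucose uptake in muscle, was at 38.0, 43.0 and 37.3 CPM in WT and 55.1, 73.3 and 60.9 CPM in KO, a change of 0.68 (adjusted p = 0.791 by edgeR). Cers1, a ceramide synthase, and Gdf1 overlap and had the same level in each of the 6 sedentary libraries, with a change of 0.83. On the lower side As3mt, an arsenic methyltransferase, had -0.35, Dbt, a subunit of the branched-chain ketoacid dehydrogenase, had -0.35, Polg2, the accessory subunit of the mitochondrial DNA polymerase, had -0.67, and Terf1, a telomere-binding protein, had -0.59. Adjusted p by edgeR ran from 0.592 to 0.791 for the 10 higher and from 0.684 to 0.986 for the 10 lower genes chosen this way.

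The other genes of DNA methylation gave no call. Of 18 listed genes, Dnmt3a among them, 17 were tested, 3 were positive and the median was -0.08. Dnmt1 was at 19.4, 18.8 and 16.5 CPM in WT and 20.4, 16.7 and 18.0 CPM in KO, a change of 0.01 with a 95% interval from -0.28 to 0.29. Dnmt3b, the other de novo methyltransferase, was near 2 CPM in both groups, with a change of -0.17 (SE 0.329). Tet3 had a change of -0.42 (SE 0.191) and Tet1 of -0.60 (SE 0.344), while Tet2 had -0.01 (SE 0.135). Neither Dnmt1 nor Dnmt3b passed the test in either direction.

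Germline genes, which promoter methylation is known to keep silent in somatic tissue, were mostly near 0 counts. Of 24 listed genes 3 passed the filter, Brdt, Sycp3 and Sycp1, and all 3 were negative, with Brdt at -0.55 (SE 0.295). The 21 untested genes summed to 24 counts over the 3 WT libraries and 38 over the 3 KO libraries, 7 of them had 0 counts in all 6 libraries, and the largest KO sum of a single gene was 10 counts.

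Imprinted genes, whose parental alleles carry different methylation, were mostly without a call. Of 35 listed genes 28 were tested, 18 were positive and the median was 0.15, and without KO b it was 0.07. Rian, a noncoding RNA of the Dlk1-Dio3 region, was at 9.26, 11.1 and 9.44 CPM in WT and 15.4, 20.9 and 19.8 CPM in KO, a change of 0.91 (SE 0.198, adjusted p = 0.507 by edgeR and 0.0258 by DESeq2). From the same region, Meg3 had a change of 0.50 (SE 0.235) and Mirg of 0.87 (SE 0.34), both without a call, and Dlk1 itself was too low to test. H19, at 3853 to 5797 CPM in WT and 5463 to 7075 CPM in KO, had a change of 0.36 (SE 0.177). Cdkn1c, a cell cycle inhibitor, was lower in every KO library, with a change of -0.61 (SE 0.228, adjusted p = 0.986 by edgeR).

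No gene of the slow or fast fibre lists was called by edgeR. The slow myosin Myh7 was at 7420, 10953 and 8809 CPM in WT and at 8660, 7059 and 9074 CPM in KO, a log2 change of -0.13 (SE 0.162). The fast oxidative myosin Myh2 was at 9792, 10036 and 10949 CPM in WT and at 8555, 8166 and 9914 CPM in KO, a change of -0.21 (SE 0.165). The groups overlapped for both. Of 12 slow fibre genes 4 were positive with a median log2 change of -0.04, and without KO b 6 were positive. Of 15 fast fibre genes 14 were positive with a median of 0.11, which turned to -0.15 with 4 positive without KO b. Pvalb, the calcium buffer of fast fibres, was at 2884 CPM in KO b, 582 in KO c and 128 in KO a, against 250 to 323 CPM in WT.

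All 5 genes of the embryonic and perinatal myosin list were positive with a median of 1.07, without a call. The list holds Myh3, Myh8 and Myl4, and also the actin gene Actc1 and the troponin gene Tnnt2. Which library was high differed from gene to gene: Myh8, the perinatal myosin, was at 47.6 and 32.4 CPM in KO b and KO c, 9.995 in KO a and 2.86 to 9.75 CPM in WT, whereas Myh3 was high in KO a alone. Without KO a the median was 0.15. In exercised mice 3 of the 5 genes were positive and 2 negative, with a median of 0.07. There Myh8 was at 14.2 to 41.9 CPM in KO and 2.62 to 6.50 CPM in WT. Its change was 2.35 (SE 0.686), with no overlap and without a call by edgeR. Runx1, a transcription factor that denervation induces, was at 5.01 to 7.08 CPM in WT and 7.40 to 14.96 CPM in KO, a change of 0.73 (SE 0.326, adjusted p = 0.986 by edgeR). Myog, the myogenic factor that acts on receptor genes, had 0.31 (SE 0.237).

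Genes of mitochondrial energy supply had small negative changes and no call. All 22 fatty acid uptake and oxidation genes were negative, with a median of -0.16, and the smallest unadjusted p belonged to Etfa and Etfb, which pass electrons from acyl-CoA dehydrogenases, and to Acadvl, the very long chain dehydrogenase. Acadvl was at 601, 666 and 707 CPM in WT and 596, 481 and 591 CPM in KO, a change of -0.24 (SE 0.107). The lowest level was that of KO b, and without this library the median of the list was -0.07 with 20 of 22 negative. In complex I 33 of 37 genes were negative (median -0.05), in complexes II to V 34 of 39 tested of 40 listed (median -0.09) and in the TCA cycle 13 of 14 (median -0.10). Without KO b, 12, 9 and 3 genes of these lists were positive, and each median was -0.05. In exercised mice 8 of the 22 fatty acid genes and 28 of the 37 complex I genes were positive. Genes of one pathway vary together between libraries, so these counts are not counts of independent genes.

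Markers of the other cells in the muscle are given as lists, and in bulk tissue fewer cells of a type and less RNA per cell cannot be told apart. All 13 endothelial genes were negative with a median of -0.12, and their sum was 1309 to 1354 CPM in WT and 1180 to 1265 CPM in KO, without overlap. In exercised mice all 13 were negative too, with a median of -0.26. Their sum there was 1107 to 1156 CPM in WT and 820 to 1046 CPM in KO. At rest 9 of 11 smooth muscle and pericyte genes were negative with a median of -0.22. The pericyte gene Rgs5 was at 715, 783 and 754 CPM in WT and 585, 617 and 607 CPM in KO, a change of -0.32 (SE 0.111, adjusted p = 0.986 by edgeR). Of 13 macrophage genes 11 were positive with a median of 0.77, and of 0.20 without KO b, where Lyz2 was at 298 CPM against 28.9 to 57.0 CPM in the other 5. The 20 liver genes were all positive, with a median of 5.88, and 3.08 without KO b. Their sum was 793 CPM in KO b, 147 in KO a, 78.5 in KO c and 37.5 to 95.5 CPM in WT. All 10 tested of 11 Schwann cell genes were positive with a median of 0.14, which turned to -0.67 without KO b. Of 10 adipocyte genes 9 were positive with a median of 0.47, and of 0.45 without KO b, and 0 reached an unadjusted p under 0.05. Their sum was 393 to 718 CPM in WT and 501 to 664 CPM in KO, and in exercised mice 2 of the 10 were positive. Of 11 fibro-adipogenic progenitor and fibroblast genes 2 were positive (median -0.05), and of 9 tendon genes 5 (median 0.14). The defining markers of muscle fibres were present in all 6 libraries, with a summed level from 104778 to 129605 CPM. None of these genes was called by edgeR, and the part of other cells in the called genes was not tested. Without KO b, Ctxn3 had a change of 0.97 (adjusted p = 0.031 by edgeR), Mttp of 1.13 (adjusted p = 0.0804), Kcne1l of 1.45 (adjusted p = 0.107) and Aldh1l1 of 1.24 (adjusted p = 0.944). DESeq2 without KO b, a setting chosen after seeing the data, still called these genes. Its adjusted p was 1.68e-09 for Ctxn3, 0.00011 for Mttp, 1.34e-05 for Kcne1l and 0.0437 for Aldh1l1.

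**Figure D4:**
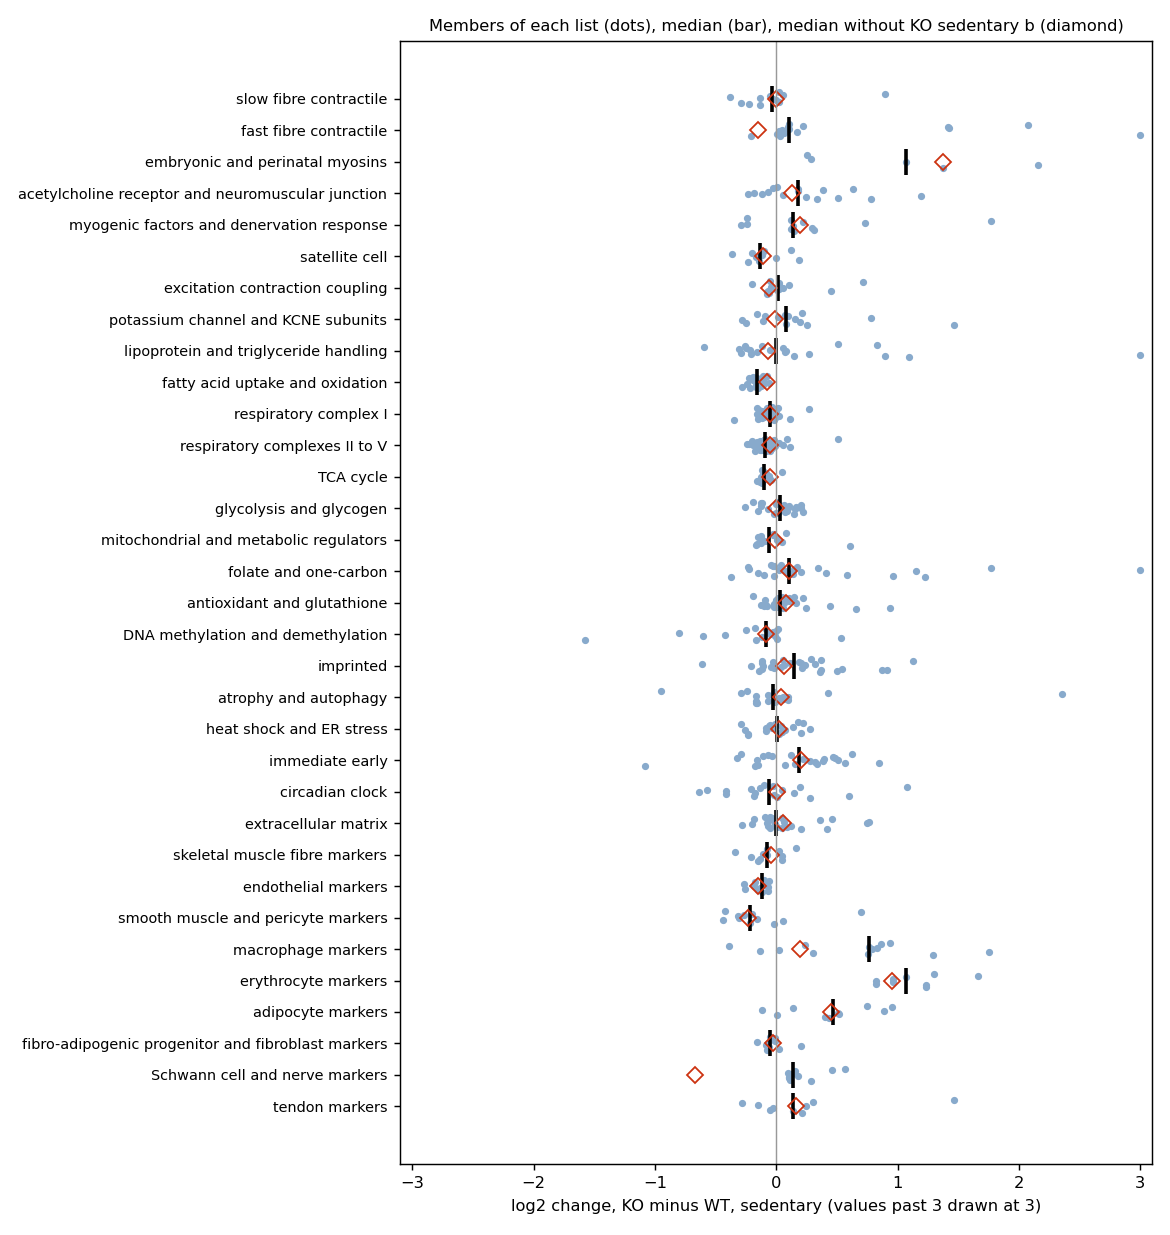
Each dot is the log2 change of 1 tested gene of the list named at the left, the bar is the median of the list and the red diamond is the median without KO sedentary b. The lists of fast fibre, macrophage and Schwann cell genes have diamonds far from their bars, and the 22 fatty acid genes all lie left of 0.

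The exercised mice gave the same comparison in other libraries. There edgeR called 3 genes, 0.0216% of those tested (3.38% at an unadjusted p under 0.05): Ctxn3, Mttp and Dnmt3a. Ctxn3 was at 37.2, 29.3 and 38.6 CPM in exercised WT and at 83.1, 86.4 and 89.1 CPM in exercised KO, a change of 1.30 (SE 0.103). Mttp had a change of 1.13 (SE 0.141) and Dnmt3a of -1.21 (SE 0.161), with adjusted p of 0.0198 and 0.0334 by edgeR. Kcne1l was at 5.43 to 6.92 CPM in WT and 13.1 to 14.2 CPM in KO, a change of 1.17 (SE 0.194, adjusted p = 0.157 by edgeR), and Aldh1l1 had 1.04 (SE 0.251, adjusted p = 1.00 by edgeR), both without overlap. The 4 genes called at rest thus had changes of the same sign after exercise, and the difference between the conditions had an unadjusted p from 0.0645 for Ctxn3 to 0.857 for Mttp.

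Of the 20 genes called by edgeR or DESeq2 at rest, 15 had the same sign after exercise, beside 51.6% of all genes, and 17 had a smaller change there. Gpx1 went from 0.66 at rest to -0.03 after exercise, a difference of -0.68 with an unadjusted p of 0.000748, and Gpx3 from 0.94 to 0.31, a difference of -0.63 with an unadjusted p of 0.00998. Neither difference passed, since the adjusted p of the difference between conditions was 1.00 for each gene by edgeR. Over all genes edgeR called 0 differences between the genotype effects at rest and after exercise, with 430 (3.1%) at an unadjusted p under 0.05, and limma-voom called 0. DESeq2 called 22, and these were liver transcripts such as Alb, high in KO b at rest and in WT b (227 CPM) and WT c (178 CPM) after exercise. Genes were chosen for their change at rest, so a smaller change in the other mice is a description and not a sign that exercise lowered it.

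**Figure D5:**
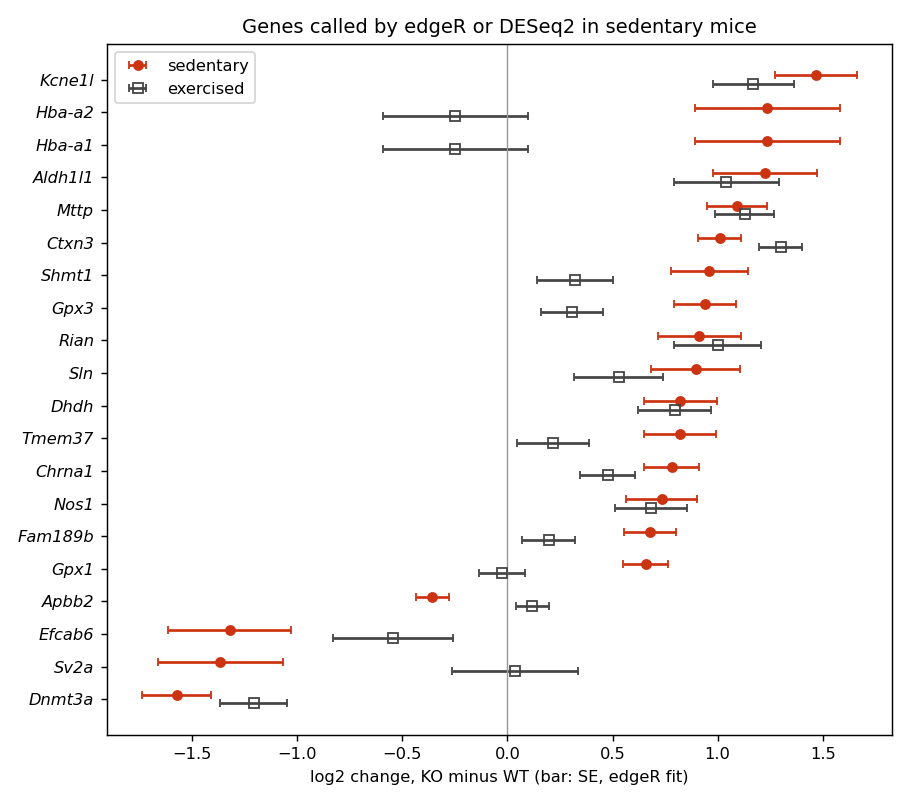
For each of the 20 genes called in sedentary mice by edgeR or DESeq2, the red point is the log2 change of KO against WT in sedentary mice and the open square that in exercised mice, with bars of 1 SE from the edgeR fit. Ctxn3, Mttp, Kcne1l, Aldh1l1, Rian, Dhdh and Nos1 lie well to the right of 0 in both, while Gpx1, Gpx3, Sv2a and the globins are near 0 or smaller after exercise.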

How the data were processed

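RNA was measured in mouse soleus. Per the labels' protocols, frozen tissue was extracted with Trizol and a spin column kit and sequenced with a BGI kit on a BGISEQ. The submitters' processing notes name STAR, featureCounts and mm10. The sources used here give no versions, annotation or strand setting. The authors deposited 1 table with raw counts per gene for 12 libraries, whose 12 further value columns were not used. A column name holds genotype, condition and an animal number that no label has, so columns were assigned to groups only, and a, b and c follow column order. Library a of both exercised groups has 2 animal numbers, and whether it was pooled is unknown. The design gives 3 mice per group, and nothing else says that libraries are separate animals, so p-values measure the spread between these libraries. Replicates differed beyond counting noise, with a chi-square per gene of 8.73 to 51.9 in sedentary pairs.

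Genes were filtered with filterByExpr of edgeR 4.0.16 (minimum count 10) in R 4.3.3 and scaled with TMM. All 12 libraries entered 1 quasi-likelihood fit with 4 group means (8 residual degrees of freedom), with Benjamini-Hochberg adjustment over 13886 genes and a threshold of 0.05. CPM are scaled counts, and SE is the change divided by the root of the F statistic. DESeq2 1.42.0 and limma-voom 3.58.1 were alternatives. The code was tested on simulated data. Named genes are Dnmt3a, Aldh1l1, all genes called by edgeR or DESeq2, the next 10 higher and 10 lower by p without overlap and with a mean of at least 1 CPM, and in each list the first gene and up to 4 with the smallest unadjusted p under 0.05. A few others (Shmt2, Chrne, the Tet genes, Meg3, H19, Myog and the genes that set libraries apart) were named after their values were seen. The genes and lists were chosen with earlier results of these data known. Positions are from GENCODE vM21, and promoter windows from RefSeq GRCm38.p6.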

Additional observations from a re-analysis of the deposited data

How the results depend on the processing

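DESeq2 called 20 genes in sedentary mice, 9 in exercised mice and 22 for the difference between them, where edgeR called 4, 3 and 0. With DESeq2 and KO sedentary b left out, a setting chosen after seeing the data, 12 genes were called in sedentary mice. Leaving out 1 library at a time, edgeR called 1 to 5 genes in sedentary mice, with 1 without KO sedentary c and 2 without KO sedentary b or WT sedentary b. In exercised mice it called 1 to 4, with 1 without KO exercise a, KO exercise b or KO sedentary c, and for the difference it called 0 each time. The cause of these shifts was not tested. In the other settings (the 6 sedentary libraries alone, other scaling or filters, limma-voom, the clock list or, added after seeing the data, the Dbp class as a covariate) 3 to 5 genes were called in sedentary mice. No called gene changed sign in any of these settings. No paired analysis was possible because the count columns carry animal numbers and not the replicate numbers of the labels. With 3 libraries a group, large changes of genes with a wide spread had no call, such as 3.00 (SE 1.70) for Myh4 on the log2 scale.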

Other observations

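Beyond the comparison itself, KO sedentary a carried a set of transcripts that were more than 2 times higher than in each of the other 5 sedentary libraries. Ankrd1, a stretch-induced muscle protein, was at 126 CPM against 15.1 to 29.3 CPM, and Myl4, the embryonic myosin light chain, at 40.5 CPM against 8.76 to 11.5 CPM. Uchl1, a ubiquitin hydrolase of neurons, was at 97.4 CPM against 20.01 to 26.9 CPM, and its antisense neighbour Uchl1os was at 5.28 CPM against 1.16 to 1.32 CPM. Pln, which encodes phospholamban, a regulator of the calcium pump in slow fibres, was at 40.2 CPM against 7.01 to 13.6 CPM, and the matrix gene Postn at 388 CPM against 118 to 166 CPM. These values come from 1 library and no group difference was called for any of them.

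Across the 13886 tested genes the changes at rest and after exercise had a Spearman correlation of 0.05 and a Pearson correlation of -0.67. These are descriptions across genes, which are not independent replicates. The 20 liver genes moved in opposite directions, all positive at rest with a median of 5.88 and all negative after exercise with a median of -5.38. They were high in KO sedentary b at rest, with a sum of 793 CPM, and after exercise in WT b and WT c, with sums of 478 and 491 CPM. The correlation without these transcripts was not computed. Of 671 genes with an unadjusted p under 0.05 at rest, 56.6% had the same sign after exercise, while 58 reached an unadjusted p under 0.05 in both with the same sign and 70 with the opposite sign.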
